A study of Mus musculus with 20 samples.

Results

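The genes described here are 40 genes of the cell division cycle and DNA replication, from the subunits of the replicative helicase to the kinesins of the mitotic spindle. A gene was taken as measured where the array annotation gave its symbol to a feature, and of several such features the brightest on average was kept. By that rule 36 of the 40 were found among 19505 named genes, and Mcm7, Ccnd1, Ccnb1 and Foxm1 were not analysed here. Each of the 36 had a single feature.

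The data are 20 Clariom S Mouse arrays of total RNA from powdered, snap-frozen whole liver, with 5 arrays in each of 4 groups. The labels give the genotype as OGTL WT or OGTL KO and the age as 4 or 8 weeks, and the series text gives 5 mice per group. The groups are written below as 4w-WT, 4w-KO, 8w-WT and 8w-KO. OGT, or O-GlcNAc transferase, attaches a sugar, N-acetylglucosamine, to intracellular proteins. The sources used here do not give the strain, the sex, the promoter that drove the deletion or the cells in which it took place, and KO below means the label.

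Dividing cells copy their DNA in S phase and part the copies in mitosis. E2F factors switch on the replication genes late in G1, and the DREAM and MuvB-FOXM1 complexes govern the mitotic genes through a promoter element called CHR. Promoters of such genes often hold CCAAT boxes as well. The liver of a young mouse is still growing, whereas hepatocytes of the adult liver rarely divide and re-enter the cycle after injury or resection. Whole-liver RNA also holds the transcripts of sinusoidal endothelial, stellate, bile duct and immune cells, any of which may divide.

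Promoters are shown for 6 members with an entry in the RefSeq promoter table of build GRCm38.p6. Kif23 was called in 4 comparisons and Mcm6 and Mki67 in 3, and of the many members called in 2 comparisons Ube2c, Pcna and Rrm1 had the smallest adjusted p. Each runs 5′ to 3′ over up to 250 bases before the start given in that table, on the strand of the gene. Capitals mark matches to 3 motifs, read on either strand. The CHR was searched as TTTGAA, the commoner form of this element, and as the variant TTCGAA. The second motif was the CCAAT box, by the letters of its name. The E2F site was searched in 4 forms, TTTCCCGC, TTTCGCGC, TTTGCCGC and TTTGGCGC. Bases that lie inside the annotated gene are left off, 11 for Kif23 and 71 for Mki67. Coordinates are chr9:61946811-61947049 on the minus strand for Kif23, chr1:128359706-128359955 on the minus strand for Mcm6, chr7:135716451-135716629 on the minus strand for Mki67, chr2:164769679-164769928 on the plus strand for Ube2c, chr2:132253181-132253430 on the minus strand for Pcna and chr7:102441445-102441694 on the plus strand for Rrm1.
Kif23: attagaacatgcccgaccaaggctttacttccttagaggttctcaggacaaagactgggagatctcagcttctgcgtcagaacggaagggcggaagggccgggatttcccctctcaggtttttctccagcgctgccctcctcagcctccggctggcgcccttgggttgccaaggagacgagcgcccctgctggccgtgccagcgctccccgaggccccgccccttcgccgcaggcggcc
Mcm6: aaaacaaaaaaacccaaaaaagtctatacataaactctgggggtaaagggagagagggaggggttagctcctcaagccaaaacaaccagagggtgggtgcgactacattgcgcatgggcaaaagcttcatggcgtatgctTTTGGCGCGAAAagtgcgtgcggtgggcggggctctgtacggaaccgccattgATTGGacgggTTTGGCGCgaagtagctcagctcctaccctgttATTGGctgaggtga
Mki67: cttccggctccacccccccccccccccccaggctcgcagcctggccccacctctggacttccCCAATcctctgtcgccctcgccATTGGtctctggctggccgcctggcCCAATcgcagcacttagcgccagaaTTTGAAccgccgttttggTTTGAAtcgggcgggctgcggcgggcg
Ube2c: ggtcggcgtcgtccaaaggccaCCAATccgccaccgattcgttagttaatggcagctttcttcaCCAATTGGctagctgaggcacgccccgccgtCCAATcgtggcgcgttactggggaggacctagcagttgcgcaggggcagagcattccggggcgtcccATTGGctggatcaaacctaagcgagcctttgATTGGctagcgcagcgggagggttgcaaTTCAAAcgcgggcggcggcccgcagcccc
Pcna: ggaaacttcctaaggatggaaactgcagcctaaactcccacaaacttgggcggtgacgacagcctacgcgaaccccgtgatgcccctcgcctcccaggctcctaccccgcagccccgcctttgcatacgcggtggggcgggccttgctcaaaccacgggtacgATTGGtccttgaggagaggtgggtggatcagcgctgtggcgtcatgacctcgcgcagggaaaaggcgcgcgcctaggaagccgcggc
Rrm1: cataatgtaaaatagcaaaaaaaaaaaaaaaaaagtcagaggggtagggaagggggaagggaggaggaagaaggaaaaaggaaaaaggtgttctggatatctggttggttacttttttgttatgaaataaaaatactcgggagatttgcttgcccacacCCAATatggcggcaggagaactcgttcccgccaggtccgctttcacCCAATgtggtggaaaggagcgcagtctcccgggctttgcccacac

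In the Mki67 promoter 2 CHR and 3 CCAAT boxes were found, and in that of Ube2c a CHR and 6 CCAAT boxes, of which a pair on opposite strands overlap. The Mcm6 promoter held 3 E2F sites, a pair of them overlapping on opposite strands, and 2 CCAAT boxes. The Rrm1 promoter had 2 CCAAT boxes and that of Pcna had 1. Over the 250 bases the only match for Kif23, a CCAAT box, lay in the 11 bases left off. With the 50 bases after the start added, Kif23 also held 1 CHR. Of the 36 measured members 29 had an entry. Over the 250 bases, 10 of the 29 (34.5%) held a CHR, against 17.4% of 27025 promoters in the table. All 10 also held a CCAAT box, and 6.21% of all promoters held both. A CCAAT box was found in 22 of 29 (75.9%), against 34.5% of all promoters. An E2F site was found in 4 of 29 (13.8%), against 1.91%. With the 50 bases after the start added, a CHR was found in 15 of 29 (51.7%), against 19.4% of all promoters. In that longer window a CCAAT box was found in 22 of 29 (75.9%), against 37.9%, and an E2F site in 5 (17.2%), against 2.32%. These matches of letters are a description and do not show that a factor binds there.

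Ogt, the targeted gene, was 9.37, 9.87, 9.83, 9.65 and 9.14 on the log2 scale in the 4w-WT arrays and 7.37, 8.30, 8.13, 8.84 and 8.07 in the 4w-KO arrays. The difference was -1.43 (SE 0.20, limma adjusted p = 8.82e-05), so that KO stood at 37.1% of WT at 4 weeks. At 8 weeks the difference was -0.27 (SE 0.20, adjusted p = 0.529), and the groups overlapped. Lower Ogt was thus not detected in the arrays labelled KO at 8 weeks, and directions drawn from them rest on the label. With age Ogt was 1.67 higher in KO (adjusted p = 9.46e-06), without overlap, and 0.51 higher in WT (adjusted p = 0.136). Its KO difference changed with age by 1.16 (adjusted p = 0.0307). The age comparison in KO thus spans this rise in Ogt. The 8 hepatocyte markers averaged from 18.1 to 18.5 in every array. Skeletal muscle markers averaged 14.5, 12.3 and 12.2 in 4w-WT 4, 4w-KO 4 and 4w-KO 5 and from 4.56 to 6.23 in the other 17 arrays. The array number in the sample titles follows the groups, so array order and group cannot be told apart.

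The main feature of the 36 genes was a fall with age that was shared by both genotypes. Between 4 and 8 weeks 32 of 36 members (88.9%) fell in WT and 32 of 36 fell in KO, at a limma adjusted p below 0.05 over all genes. In the same comparisons 5.23% of all 19505 genes were called lower in WT and 6.78% in KO. No member was called higher, while 3.71% of all genes were in WT and 7.85% in KO. The median difference of the 36 was -2.01 in WT and -1.65 in KO, beside 0.04 and 0.02 for all genes. The 5 arrays of each age did not overlap, with 8 weeks lower, for 30 members in WT and 31 in KO (86.1%), against 5.38% and 4.69% of all genes. No member was without overlap in the other direction, against 3.70% of all genes in WT and 4.79% in KO. The WT comparison and the KO comparison use different arrays.

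**Figure D1:**
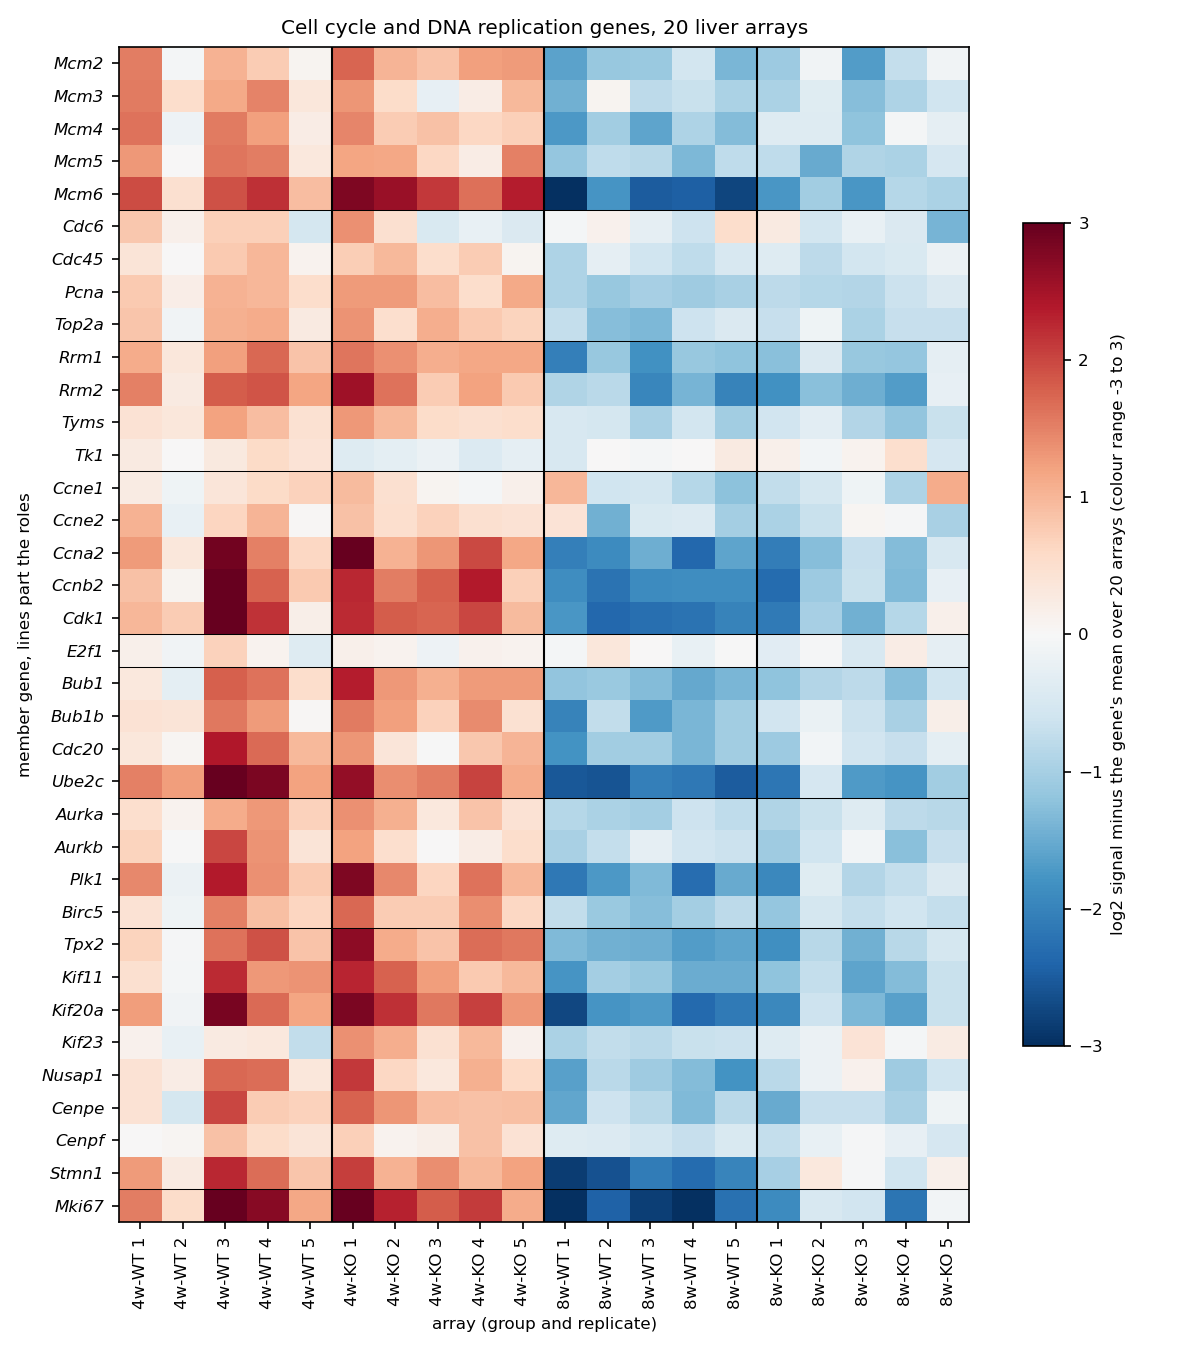
Log2 signal of the 36 measured members in the 20 arrays, each gene shown as the difference from its own mean over all arrays (colour, range -3 to 3). Rows are genes ordered by role and columns are arrays ordered by group. The 10 arrays of 4-week liver are mostly red and the 10 arrays of 8-week liver mostly blue, with Tk1 and E2f1 among the palest rows.

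Many of the 8-week levels reached the background of the array. Background was taken as the 95th percentile of 1412 olfactory and vomeronasal receptor genes, and lay between 5.01 and 5.20 in the 4 groups. At or below it were 14 of 36 members in 8w-WT and 10 in 8w-KO, against 2 in 4w-WT and 1 in 4w-KO. Of all genes, 45.4% were at or below it in 8w-WT, 41.6% in 8w-KO, 42.3% in 4w-WT and 41.9% in 4w-KO. Being dim at 8 weeks is thus not particular to the members. For the dim members a difference is only a bound, in which the background replaces the dim mean. With bounds in place, and with 0 where both groups were dim, the median of the 36 was -1.68 in WT and -1.54 in KO. A fall of at least 4-fold was then seen in 13 members in WT and 12 in KO. These arrays hold RNA of all cells together, so fewer dividing cells and less RNA per cell cannot be told apart.

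The MCM proteins form the ring-shaped helicase that unwinds DNA at the replication fork. All 5 measured subunits fell with age in both genotypes. Mcm6 (chr1:128331575-128359705, GRCm38.p6) was 11.16, 9.69, 11.12, 11.40 and 10.13 in the 4w-WT arrays and 5.98, 7.43, 6.71, 6.75 and 6.44 in the 8w-WT arrays. In KO it was 12.00, 11.78, 11.32, 10.86 and 11.55 at 4 weeks and 7.45, 8.16, 7.46, 8.35 and 8.24 at 8 weeks. Every 4-week array stood above every 8-week array of its genotype. The difference was -4.04 (SE 0.32, adjusted p = 1.88e-08) in WT, a 16.4-fold fall, and -3.57 (SE 0.32, adjusted p = 1.37e-07) in KO, a fall of 11.9-fold. The ages were also apart in each genotype for the other subunits. Mcm2 ran from 6.45 to 8.03 in 4w-WT, from 7.37 to 8.24 in 4w-KO, from 4.89 to 5.96 in 8w-WT and from 4.83 to 6.41 in 8w-KO. Mcm3 ran from 6.42 to 7.63 in 4w-WT, from 5.83 to 7.40 in 4w-KO, from 4.65 to 6.16 in 8w-WT and from 4.81 to 5.72 in 8w-KO. Mcm4 ran from 6.65 to 8.42 in 4w-WT, from 7.41 to 8.25 in 4w-KO, from 5.08 to 5.87 in 8w-WT and from 5.59 to 6.74 in 8w-KO. The differences in WT and KO were -1.82 and -1.96 for Mcm2, -1.76 and -1.39 for Mcm3, and -2.21 and -1.35 for Mcm4. Mcm5 ran from 6.46 to 8.05 in 4w-WT, from 6.66 to 7.97 in 4w-KO, from 5.10 to 5.69 in 8w-WT and from 4.94 to 5.94 in 8w-KO, with differences of -1.93 and -1.87.

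Loading of the helicase and movement of the fork depend on Cdc6, which brings the MCM ring to origins, Cdc45, which activates it, Pcna, the sliding clamp of the DNA polymerases, and Top2a, which untangles the copied strands. Pcna was 14.37, 13.79, 14.64, 14.58 and 14.11 in 4w-WT and 12.67, 12.45, 12.60, 12.53 and 12.63 in 8w-WT. In 4w-KO it was 14.87, 14.88, 14.52, 14.11 and 14.73, and in 8w-KO 12.82, 12.75, 12.72, 12.94 and 13.17. The spread at 8 weeks was narrow, and no array of one age reached the other. Pcna fell by 1.72 (SE 0.17) in WT and by 1.74 in KO, with adjusted p of 3.68e-07 and 3.56e-07. Top2a ran from 6.68 to 7.90 in 4w-WT, from 7.28 to 8.12 in 4w-KO, from 5.44 to 6.35 in 8w-WT and from 5.83 to 6.65 in 8w-KO, and it fell by 1.51 in both genotypes. Cdc45 ran from 5.32 to 6.31 in 4w-WT, from 5.38 to 6.28 in 4w-KO, from 4.39 to 5.03 in 8w-WT and from 4.53 to 5.13 in 8w-KO. Cdc45 differed by -1.07 in WT and -1.09 in KO, with bounds of -0.57 and -0.90 because both 8-week means were not above background. Cdc6 was not called in either genotype, at -0.43 (95% interval -1.15 to 0.29) in WT and -0.62 (-1.34 to 0.10) in KO, and its 8-week levels were not above background.

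Nucleotides for replication come from ribonucleotide reductase, whose large and small subunits are Rrm1 and Rrm2, from thymidylate synthase (Tyms) and, by salvage, from thymidine kinase (Tk1). Rrm1 was 9.91, 9.12, 10.03, 10.51 and 9.64 in 4w-WT and 6.74, 7.65, 6.97, 7.65 and 7.59 in 8w-WT. In 4w-KO it was 10.39, 10.15, 9.88, 9.94 and 9.96 and in 8w-KO 7.53, 8.35, 7.65, 7.64 and 8.51. Its difference was -2.52 (SE 0.25, adjusted p = 4.39e-07) in WT and -2.13 (SE 0.25, adjusted p = 4.77e-06) in KO. The small subunit fell as well. Rrm2 ran from 8.17 to 9.79 in 4w-WT, from 8.66 to 10.44 in 4w-KO, from 5.89 to 7.09 in 8w-WT and from 6.09 to 7.66 in 8w-KO, and the differences were -2.75 and -2.67. Tyms was 8.65, 8.55, 9.42, 9.14 and 8.67 in 4w-WT, 9.51, 9.17, 8.77, 8.69 and 8.74 in 4w-KO, 7.73, 7.68, 7.23, 7.66 and 7.16 in 8w-WT, and 7.63, 7.89, 7.34, 7.02 and 7.53 in 8w-KO. Its differences were -1.39 and -1.49. Rrm1, Rrm2 and Tyms thus fell in both genotypes with no overlap of the ages. Tk1 did not follow them: its age difference was -0.36 in WT (adjusted p = 0.198) and 0.34 in KO (adjusted p = 0.185), and neither was called.

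Cyclins and their kinase Cdk1 drive the steps of the cycle, E cyclins at the entry to S phase, cyclin A2 through S phase and G2, and B cyclins with Cdk1 into mitosis. Ccna2 ran from 7.95 to 10.50 in 4w-WT, from 8.64 to 10.61 in 4w-KO, from 5.26 to 6.15 in 8w-WT and from 5.53 to 7.12 in 8w-KO. The differences were -3.19 (SE 0.41, adjusted p = 2.08e-05) in WT and -2.87 in KO. Ccnb2 ran from 7.92 to 10.97 in 4w-WT, from 8.56 to 10.21 in 4w-KO, from 5.63 to 5.98 in 8w-WT and from 5.53 to 7.60 in 8w-KO, with differences of -3.27 and -2.86. Neither cyclin overlapped between the ages. Cdk1 was 6.48, 6.24, 8.47, 7.66 and 5.67 in 4w-WT and from 3.14 to 3.73 in 8w-WT, from 6.44 to 7.73 in 4w-KO and from 3.36 to 5.64 in 8w-KO. Both 8-week means were not above background. Its difference of -3.53 in WT is therefore given as a bound of -1.71, and that of -2.80 in KO as a bound of -2.22. The E cyclins had smaller differences. Ccne2 ran from 6.26 to 7.51 in 4w-WT, from 6.90 to 7.35 in 4w-KO, from 5.04 to 6.88 in 8w-WT and from 5.50 to 6.53 in 8w-KO. Ccne2 differed by -1.08 in WT (adjusted p = 0.025) and -1.11 in KO (adjusted p = 0.0149), and Ccne1 was not called, at -0.80 (95% interval -1.55 to -0.04) and -0.57 (-1.32 to 0.19). E2f1, the E2F factor in the list, was not above background in any of the 4 groups, with means from 3.73 to 4.00.

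The spindle checkpoint holds chromosomes until all are attached, through Bub1 and the Bub1b product BubR1. Cdc20 and the ubiquitin-conjugating enzyme Ube2c then act with the anaphase-promoting complex to destroy securin and cyclin B. All 4 fell in both genotypes. Ube2c was 7.84, 7.59, 9.87, 9.16 and 7.53 in 4w-WT and 3.79, 3.75, 4.28, 4.18 and 3.83 in 8w-WT. In 4w-KO it was 8.97, 7.73, 7.86, 8.35 and 7.44, and in 8w-KO 4.16, 5.84, 4.64, 4.57 and 5.30. Both 8-week means were not above background, and the differences of -4.43 (adjusted p = 1.28e-07) and -3.17 (adjusted p = 1.21e-05) have bounds of -3.20 and -3.05. Bub1 and Cdc20 were likewise not above background at 8 weeks in either genotype, and Bub1b was not in 8w-WT. Bub1 ran from 4.57 to 6.65 in 4w-WT, from 5.94 to 7.21 in 4w-KO, from 3.32 to 3.75 in 8w-WT and from 3.58 to 4.27 in 8w-KO. Its fitted differences of -2.10 in WT and -2.40 in KO have bounds of -0.46 and -1.30. Cdc20 ran from 4.88 to 7.22 in 4w-WT, from 4.81 to 6.13 in 4w-KO, from 3.03 to 3.77 in 8w-WT and from 3.73 to 4.74 in 8w-KO. Its differences of -2.36 and -1.24 have bounds of -0.72 and -0.49. Bub1b was 6.48 ± 0.65 (SD, n = 5) in 4w-WT, 6.81 ± 0.47 in 4w-KO, 4.36 ± 0.51 in 8w-WT and 5.30 ± 0.44 in 8w-KO, and it differed by -2.12 (bound -1.28) in WT and -1.51 in KO. The Cdc20 call in KO was lost without 4w-KO 1 (adjusted p = 0.052), without 8w-KO 1 (0.0538) and without the 3 arrays with muscle transcripts (0.0776).

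The mitotic kinases Aurka, Aurkb and Plk1 build and orient the spindle, and survivin (Birc5) is the partner of Aurkb at the centromere. Plk1 was 7.76 ± 0.94 in 4w-WT and 4.80 ± 0.40 in 8w-WT (SD, n = 5 each), a difference of -2.96 with a bound of -2.56. In KO it ran from 7.24 to 9.40 at 4 weeks and from 4.66 to 6.22 at 8 weeks, a difference of -2.37. All 4 were called lower in both genotypes. Aurka ran from 6.06 to 7.25 in 4w-WT, from 6.26 to 7.31 in 4w-KO, from 4.93 to 5.33 in 8w-WT and from 5.04 to 5.55 in 8w-KO, with differences of -1.58 (bound -1.49) in WT and -1.52 in KO. Aurkb ran from 5.83 to 7.85 in 4w-WT, from 5.85 to 7.04 in 4w-KO, from 4.86 to 5.58 in 8w-WT and from 4.58 to 5.77 in 8w-KO, with differences of -1.51 and -1.23. Birc5 ran from 6.49 to 8.12 in 4w-WT, from 7.22 to 8.34 in 4w-KO, from 5.33 to 5.87 in 8w-WT and from 5.44 to 6.07 in 8w-KO, with differences of -1.66 and -1.79. None of the 4 overlapped between the ages.

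The largest role group held 8 genes of the spindle, kinetochore and microtubules, and all 8 were called lower with age in WT and in KO. Tpx2 activates Aurka on the spindle, Kif11 pushes the poles apart, Kif20a and Kif23 act at the midzone during cytokinesis, Nusap1 binds spindle microtubules, Cenpe and Cenpf sit at the kinetochore, and Stmn1 (stathmin) destabilises microtubules. Kif20a was 7.57 ± 1.06 in 4w-WT and 4.07 ± 0.42 in 8w-WT, a difference of -3.50 with a bound of -2.37. In KO it was 8.19 ± 0.59 and 4.96 ± 0.58, a difference of -3.23 with a bound of -3.17. Tpx2, too, was not above background at 8 weeks. It was 6.69 ± 0.78 in 4w-WT, 7.27 ± 0.70 in 4w-KO, 4.19 ± 0.14 in 8w-WT and 4.59 ± 0.53 in 8w-KO, and the differences of -2.50 and -2.68 have bounds of -1.50 and -2.25. Kif11 and Nusap1 were above background in all 4 groups. Kif11 ran from 6.77 to 9.06 in 4w-WT, from 7.62 to 9.10 in 4w-KO, from 5.06 to 5.80 in 8w-WT and from 5.25 to 6.16 in 8w-KO, with differences of -2.45 and -2.51. Nusap1 ran from 7.34 to 8.85 in 4w-WT, from 7.43 to 9.25 in 4w-KO, from 5.32 to 6.31 in 8w-WT and from 6.06 to 7.24 in 8w-KO, with differences of -2.20 and -1.45. Cenpe and Cenpf were not above background in 8w-WT. Cenpe ran from 5.41 to 7.94 in 4w-WT, from 6.82 to 7.70 in 4w-KO, from 4.39 to 5.31 in 8w-WT and from 4.43 to 5.81 in 8w-KO, with differences of -1.70 (bound -1.42) in WT and -1.96 in KO. Cenpf ran from 4.63 to 5.50 in 4w-WT, from 4.73 to 5.49 in 4w-KO, from 3.93 to 4.23 in 8w-WT and from 3.90 to 4.59 in 8w-KO, with fitted differences of -0.88 and -0.80. Cenpf was not above background in either WT group, so its fitted difference there gives no size, and in KO its bound is -0.06. Kif23 differed by -0.72 in WT (adjusted p = 0.0465) and by -0.80 in KO (adjusted p = 0.0171), and its ages overlapped in both genotypes. The Kif23 call in WT was lost in 17 of 28 alternatives and the Ccne2 call in WT in 8 of 28, and the Kif23 call in KO was lost without 4w-KO 1 (adjusted p = 0.0561) and without 8w-KO 1 (0.0554).

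**Figure D2:**
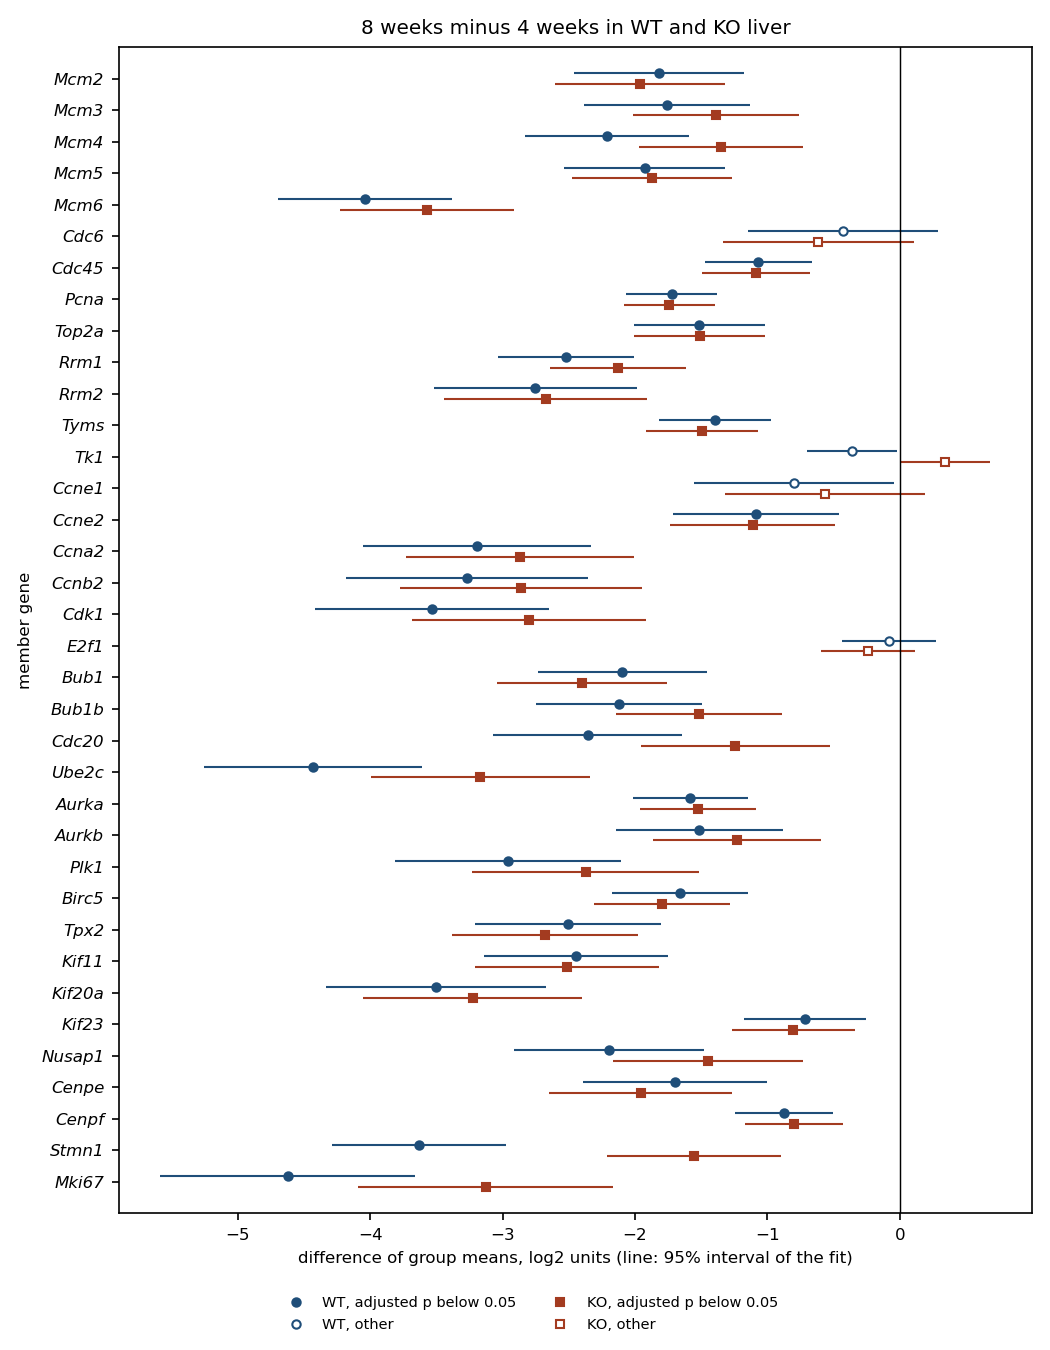
Difference of group means between 8 and 4 weeks for each of the 36 members (log2 units, horizontal axis), in WT (blue circles) and KO (red squares), with the 95% interval of the fit as a line. Filled marks have an adjusted p below 0.05. The 32 filled marks of each genotype all lie left of 0, from -0.72 to -4.62 in WT and from -0.80 to -3.57 in KO. For members not above background at 8 weeks the value is fitted and not a bound.

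Mki67 encodes Ki-67, the nuclear protein used to mark cells in cycle. It was 10.25, 9.27, 11.70, 11.46 and 9.89 in 4w-WT and 5.19, 6.29, 5.89, 5.61 and 6.48 in 8w-WT. In 4w-KO it was 11.80, 11.02, 10.53, 10.83 and 9.84, and in 8w-KO 6.84, 8.23, 8.14, 6.53 and 8.64. The ages were wide apart in both genotypes, and all 5 arrays of 8w-KO were above all 5 of 8w-WT. Its fall with age of 24.6-fold in WT (difference -4.62, SE 0.46, adjusted p = 6.51e-07) was the largest among members measured above background at both ages, and in KO the fall was 8.74-fold (-3.13, SE 0.46, adjusted p = 7.73e-05). The test of the difference between these falls gave 1.49 (95% interval 0.13 to 2.86) with an adjusted p of 0.262, which is not a call.

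KO and WT differed far less than the ages. At 4 weeks 1 of 36 members (2.78%) was called higher in KO and 1 lower, against 4.70% and 5.48% of all genes, so neither share was above the background. The 4w-KO and 4w-WT arrays here are also those of the age comparisons. The median difference of the members was 0.19, with 26 of 36 above 0, beside 0.002 for all genes, with 9800 of 19505 above 0. The standard errors of the members ran from 0.16 to 0.46. Tk1 was the member called lower: it was 6.07, 5.82, 6.09, 6.37 and 6.22 in 4w-WT and 5.41, 5.51, 5.62, 5.38 and 5.54 in 4w-KO. Every KO array lay below every WT array, and the difference was -0.62 (SE 0.16, adjusted p = 0.0169, exact permutation p = 0.00794). Tk1 was the single member without overlap (KO lower) among 4.49% of all genes. No member was without overlap in the other direction, against 4.06% of all genes. Without the 3 arrays with muscle transcripts Tk1 differed by -0.54 and was not called (adjusted p = 0.117).

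Kif23, which encodes the motor subunit of the centralspindlin complex, was the member called higher in KO at 4 weeks. It was 6.93, 6.59, 7.07, 7.12 and 6.07 in 4w-WT and 8.17, 7.90, 7.27, 7.77 and 6.93 in 4w-KO. The groups overlapped through 4w-KO 5, and the difference was 0.85 (SE 0.22, adjusted p = 0.0157). The call was lost without 4w-WT 5 (adjusted p = 0.055), without 4w-KO 1 (0.0522) and with only the groups compared in the fit (0.0572). Mcm6 was 0.80 higher in KO (95% interval 0.14 to 1.46, adjusted p = 0.122), and 1.18 higher (adjusted p = 0.0479) once the 3 arrays with muscle transcripts were left out. Mki67 differed by 0.29 (-0.67 to 1.25), Stmn1 by 0.07 (-0.59 to 0.72) and Pcna by 0.32 (-0.02 to 0.67).

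At 8 weeks 4 of 36 members (11.1%) were called higher in the arrays labelled KO, against 4.94% of all genes, and none was called lower, against 1.65%. They were Stmn1, Mki67, Mcm6 and Kif23, and the groups did not overlap for these and for Pcna, 5 members (13.9%) against 4.13% of all genes. None was without overlap in the other direction, against 1.96% of all genes. The median difference was 0.33, with 31 of 36 above 0, beside -0.04 for all genes, with 8546 of 19505 above 0. The members varied together from mouse to mouse, so their signs are not separate observations. With bounds for dim groups the median of the members was 0.09, and in 10 members both groups were not above background. An unadjusted p below 0.05 was found for 13 members (36.1%), against 19.4% of all genes in either direction. Setting the array medians equal moved the median of all genes by -0.11 in this comparison, and 3 members were then called higher, without Kif23.

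Stmn1 (chr4:134468320-134473843, GRCm38.p6) had the largest difference. It was 6.35, 6.58, 7.09, 6.87 and 7.20 in 8w-WT and 8.18, 9.51, 9.16, 8.60 and 9.35 in 8w-KO. Every KO array lay above every WT array, and the difference was 2.14 (SE 0.32, adjusted p = 1.56e-04, exact permutation p = 0.00794), or 4.41-fold. At 4 weeks Stmn1 was 10.47, 9.46, 11.45, 10.86 and 10.01 in WT and 11.25, 10.22, 10.57, 10.15 and 10.39 in KO, and the groups overlapped. Its fall with age was 12.4-fold in WT (difference -3.63) and 2.94-fold in KO (difference -1.56). The KO difference at 8 weeks exceeded that at 4 weeks by 2.08 (SE 0.45, adjusted p = 0.0147).

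Stmn1 was the single member whose KO difference was called as changing with age (2.78%), against 3.05% of all genes called in either direction. Without the 3 arrays with muscle transcripts its value was 1.81 and the call was lost (adjusted p = 0.0599). Tk1 had a change of 0.70 (95% interval 0.22 to 1.19, adjusted p = 0.111), and without 8w-KO 5 it was 0.84 and called (adjusted p = 0.0338).

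Mki67 was higher in KO at 8 weeks by 1.78 (SE 0.46, adjusted p = 0.0206, exact permutation p = 0.00794), or 3.44-fold. The call was lost when any of 4 arrays was left out: adjusted p was 0.0571 without 8w-WT 1, 0.0502 without 8w-WT 4, 0.0617 without 8w-KO 2 and 0.0684 without 8w-KO 5. Mcm6 was higher by 1.27 (SE 0.32, adjusted p = 0.0153), or 2.41-fold, from the array values given above. Kif23 was 5.85, 6.06, 5.99, 6.13 and 6.16 in 8w-WT and 6.41, 6.62, 7.20, 6.75 and 7.04 in 8w-KO. The difference was 0.77 (SE 0.22, adjusted p = 0.0401), or 1.70-fold, and the call was lost in 13 of 28 alternatives, with an adjusted p of up to 0.122. The calls of Stmn1 and Mcm6 held in all 28 alternatives.

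**Figure D3:**
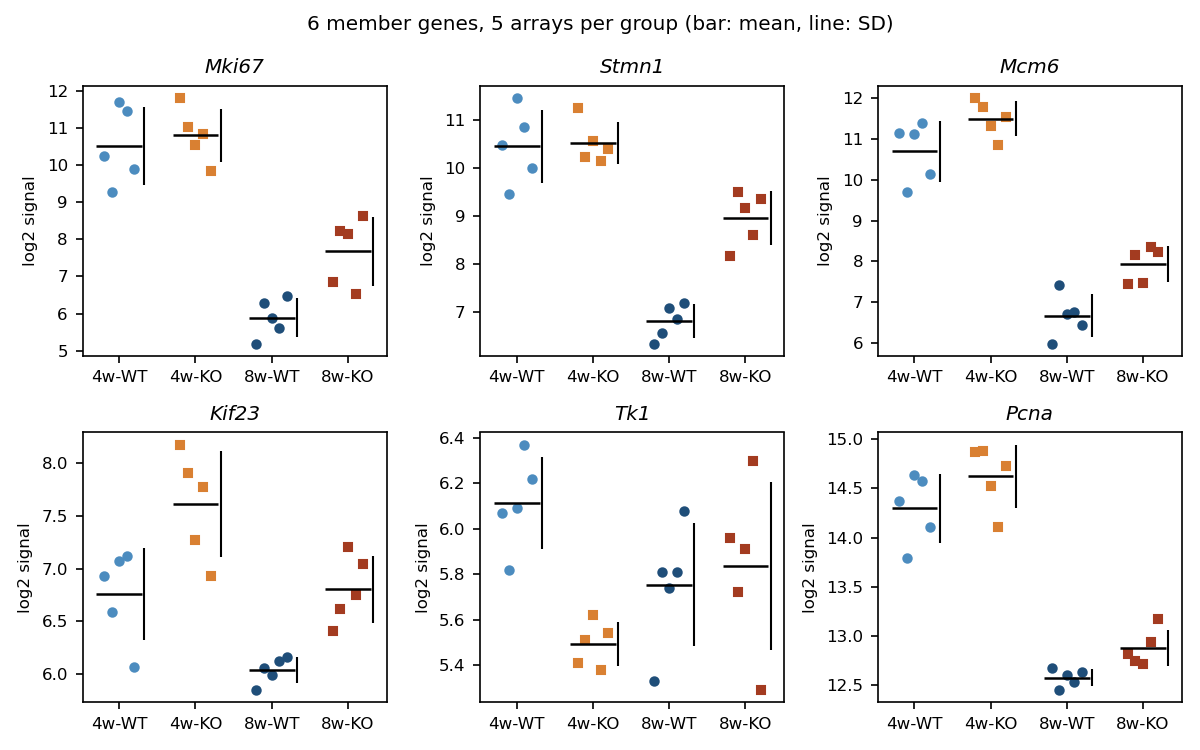
Log2 signal of Mki67, Stmn1, Mcm6, Kif23, Tk1 and Pcna in the 4 groups, a point for each of 5 arrays, with the group mean as a bar and the SD as a line beside it; each panel has its own axis. At 8 weeks all KO points lie above all WT points for Mki67, Stmn1, Mcm6, Kif23 and Pcna, and at 4 weeks all KO points lie below all WT points for Tk1.

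The other members did not pass the test at 8 weeks. Among the helicase genes Mcm4 was 0.85 higher (95% interval 0.23 to 1.47, adjusted p = 0.0989), Mcm2 0.42 (-0.23 to 1.06), Mcm5 0.04 (-0.56 to 0.65) and Mcm3 -0.07 (-0.70 to 0.56). Mcm4 was called without 8w-KO 3 (adjusted p = 0.0379) and with only the groups compared (0.0367). Pcna was 0.30 higher (-0.04 to 0.65, adjusted p = 0.33) although its groups did not overlap. Rrm1 was 0.62 higher (0.10 to 1.13, adjusted p = 0.16), and Rrm2, Tyms, Tk1 and Top2a lay between -0.01 and 0.24. Bub1b was 0.94 higher (0.31 to 1.56, adjusted p = 0.0685), with a bound of 0.10 because its WT mean was not above background. It was called without 8w-WT 2 (adjusted p = 0.0429), without 8w-KO 4 (0.0459) and with only the groups compared (0.0474). Plk1 was 0.93 higher (0.07 to 1.78, bound 0.53), Nusap1 0.82 (0.10 to 1.53), Ccnb2 0.81 (-0.10 to 1.72) and Ccna2 0.69 (-0.17 to 1.56). Cdk1, Ube2c, Kif20a and Cdc20 were fitted between 0.72 and 1.06 higher, but both groups were not above background and no fold is given. Aurka, Aurkb, Birc5, Kif11, Cenpe, Ccne1 and Ccne2 lay between -0.10 and 0.29, with Aurka and Cenpe not above background in WT. Bub1, Tpx2, Cenpf, Cdc6, Cdc45 and E2f1 were not above background in either group.

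**Figure D4:**
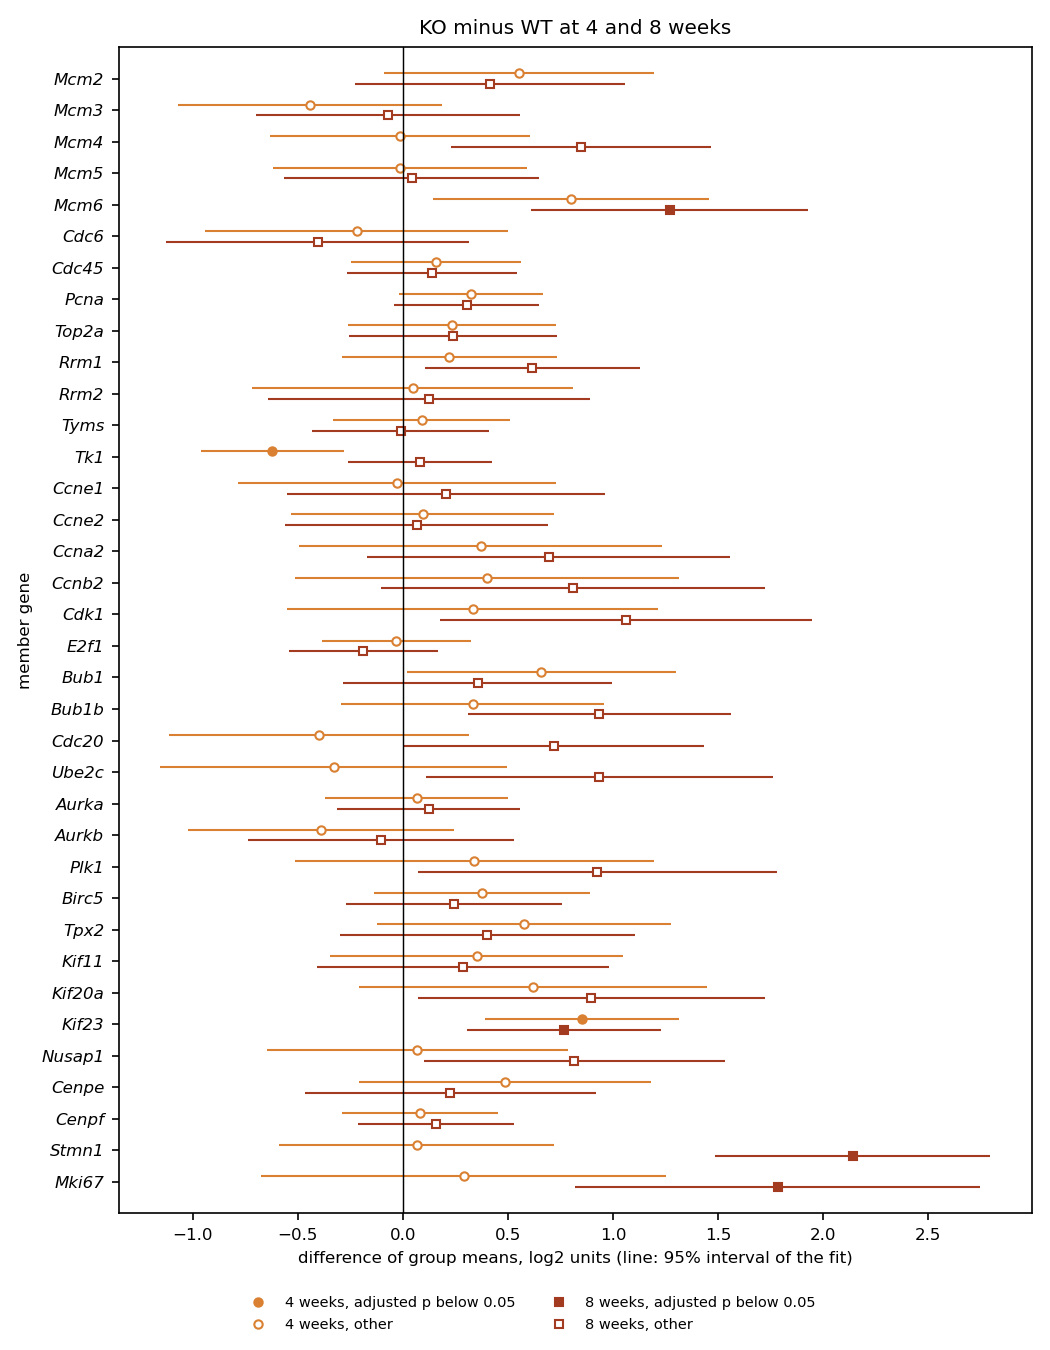
Difference of group means between KO and WT for each of the 36 members (log2 units, horizontal axis), at 4 weeks (orange circles) and 8 weeks (red squares), with the 95% interval of the fit as a line. Filled marks have an adjusted p below 0.05: Kif23 at 0.85 and Tk1 at -0.62 at 4 weeks, and Stmn1, Mki67, Mcm6 and Kif23 from 0.77 to 2.14 at 8 weeks. Values of members not above background in a group are fitted and not bounds.

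The members varied together from mouse to mouse, though this was not seen within 8w-WT. In each array the mean over 13 replication and nucleotide genes and the mean over 18 mitosis genes were taken. The mitosis mean was 7.22 ± 0.76 (SD, n = 5) in 4w-WT, 7.47 ± 0.45 in 4w-KO, 4.82 ± 0.13 in 8w-WT and 5.47 ± 0.37 in 8w-KO. The replication mean was 8.23 ± 0.50, 8.32 ± 0.32, 6.42 ± 0.18 and 6.70 ± 0.18 in the same order. The spread was thus widest in the 4-week WT livers. Within 4w-WT, replicate 3 was the highest for 15 of 18 mitosis genes and replicate 2 the lowest for 13 of them and for 11 of 13 replication genes. Within 4w-KO, replicate 1 was the highest for 16 of 18 mitosis genes and 9 of 13 replication genes. Within 8w-KO, replicate 1 was the lowest for 13 of 18 mitosis genes, at a mean of 4.92, and stood among the 8w-WT arrays, which ran from 4.64 to 4.93. Such agreement was not seen within 8w-WT, where replicate 1 was the highest for 5 of 18 mitosis genes and the lowest for 8. The median SD of the mitosis genes in 8w-WT was 0.25, the same as that of all genes.

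With the group means removed, the mean correlation between pairs of members over the 20 arrays was 0.489, and 0.692 among the 18 mitosis genes and 0.433 among the 13 replication genes. Over all genes it was 0.00126. Normalization, which makes the arrays alike, draws that value toward 0, so it is not a background for the members. Groups with a wider spread, above all 4w-WT, weigh more in these values. The genes share the same arrays and RNA, so the values are a description. Bub1 (r = 0.922), Kif20a (0.917) and Plk1 (0.894) followed the mean of the other members most closely, while Tk1 (-0.04), Ccne2 (0.251), Ccne1 (0.294) and Cdc6 (0.367) did so least. Of these last 4, Tk1, Ccne1 and Cdc6 are also members not called with age.

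**Figure D5:**
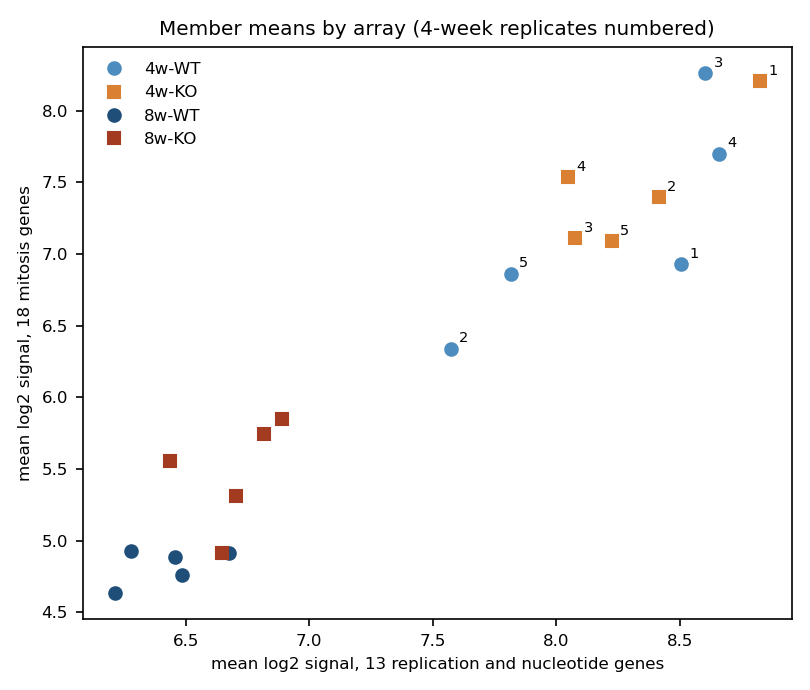
Mean log2 signal of 18 mitosis genes (vertical axis) against that of 13 replication and nucleotide genes (horizontal axis), a point for each of the 20 arrays; 4-week arrays carry their replicate number. The 8-week arrays lie at the lower left and the 4-week arrays spread from 6.34 to 8.26 in the mitosis mean, with 4w-WT 2 lowest and 4w-WT 3 highest.

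Further genes of the same processes were read from lists written for this description. Of 46 other replication genes 23 were called lower with age in WT (median of the 46, -0.62) and 26 in KO (median -0.70). Prim1, the small subunit of primase, differed by -2.76 and -3.05. Gins2, a part of the active helicase, differed by -1.43 in WT with a bound of -1.35, and Pola1, the catalytic subunit of polymerase alpha, by -1.17 with a bound of -0.12. The clamp-loader subunit Rfc4 differed by -1.28 in WT and -1.95 in KO, and in KO the loading factor Cdt1 differed by -1.66 and Rfc2 by -1.30. Mcm10, a helicase cofactor, went the other way, 2.59 higher at 8 weeks in WT (adjusted p = 4.82e-05) and 2.61 in KO (adjusted p = 3.8e-05), without overlap in both, and its KO value is given because of its WT value. At 4 weeks 5 of the 46 were higher in KO, among them Cdc7, the kinase that fires origins, at 1.22, the clamp-loader subunits Rfc2 and Rfc3 at 0.92 and 0.76 (bound 0.60) and the maintenance methyltransferase Dnmt1 at 0.74. At 8 weeks none of the 46 was called. Of all genes 5.23% were called lower with age in WT and 6.78% in KO. Between the genotypes 4.70% were called higher in KO at 4 weeks and 4.94% at 8 weeks.

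Of 57 other mitosis genes 33 were called lower with age in WT (median of the 57, -1.07) and 38 in KO (median -1.21), and none higher. Mad2l1, a checkpoint protein, differed by -2.77 and -2.54, and Racgap1, which binds Kif23 in centralspindlin, by -2.79 in WT with a bound of -1.87. The kinase Pbk differed by -3.51 (bound -2.83) and the centromeric histone Cenpa by -1.89 in WT. In KO Kif4, a chromosome-bound kinesin, differed by -1.51, Depdc1a by -2.68, and Prc1, which bundles midzone microtubules, by -1.52 (bound -1.44). At 4 weeks Bub3, the partner of Bub1, was the single one called in KO against WT, at -0.67 (adjusted p = 0.00925). At 8 weeks Pbk, Smc4, a condensin subunit, and Mad2l1 were higher in KO, at 1.53 (bound 0.85), 1.02 and 0.94, with overlap of the groups in all 3. These 3 of 57 stand beside 4.94% of all genes called higher at 8 weeks, and Bub3 beside 5.48% called lower at 4 weeks. Neither count is therefore read as a result about the list. With age 5.23% of all genes were called lower in WT and 6.78% in KO.

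Among 24 cyclin-dependent kinases, inhibitors and pocket proteins, with Myc, 6 fell with age in WT, including the pocket protein Rbl1 (-2.14), the checkpoint kinase Chek1 (-1.37), the phosphatase Cdkn3 (-1.74) and the inhibitor Cdkn1a (-3.51, with overlap of the ages). In KO 3 fell, Cdkn3 (-1.77), Chek1 (-1.63) and Rbl1 (-1.38), and 3 rose, of which the pocket protein Rbl2 (1.12) had the smallest adjusted p. At 4 weeks Myc, a transcription factor that drives growth, was 1.99 higher in KO (adjusted p = 0.00343) and Rbl2 differed by -0.57. At 8 weeks the G1 kinase Cdk4, its inhibitor Cdkn2c and Rbl1 were higher in KO, at 0.92, 0.96 and 1.16, each without overlap, and the KO difference of Cdkn2c changed with age by 1.33 (adjusted p = 0.0196). The medians of the 24 were -0.01 at 4 weeks and 0.26 at 8 weeks between the genotypes, and -0.34 in WT and -0.17 in KO between the ages. Of all genes 4.70% were called higher and 5.48% lower at 4 weeks, 4.94% higher at 8 weeks, and 3.05% for the change of the KO difference. With age 5.23% were called lower in WT, and 6.78% lower and 7.85% higher in KO. The single calls in the list are not read as a result about it. Of 16 E2F, MuvB and MYB factors, Tfdp2, an E2F partner, was lower in KO at 4 weeks (-1.23) and Mybl1 higher at 8 weeks (1.42, bound 0.49). The KO difference of Tfdp2 changed with age by 1.32 (adjusted p = 0.0322). Lin9, a core MuvB subunit, was lower with age in WT (-0.79) and in KO (-0.91), as were Mybl1 (-1.28, bound -0.35) and E2f8 (-1.40) in WT and E2f6 (-0.76) in KO, and Tfdp2 was higher in KO (0.72). Medians of the 16 were between -0.18 and 0.10 in the 5 comparisons. Beside the same shares of all genes, the single calls among the 16 are not read as a result about the list either.

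Of 20 growth factors, receptors and early genes of liver regeneration, 4 were called higher in KO at 8 weeks: Ccn2, a matrix protein induced by TGF-beta and YAP, at 1.85, Tgfb1, which restrains hepatocyte division, at 0.91, its receptor Tgfbr1 at 0.74, and the hepatocyte mitogen Hgf at 1.02. At 4 weeks Egfr was lower in KO (-1.44, adjusted p = 0.0291) and the early gene Jun higher (1.22, adjusted p = 0.0417). With age Ccn1 was higher (1.67) and Il6ra lower (-1.14) in WT, and Egfr (1.47) and Tgfbr1 (0.91) were higher in KO. Medians of the 20 were between 0.05 and 0.22 in the 5 comparisons. Of all genes 4.94% were called higher at 8 weeks, and 4.70% higher and 5.48% lower at 4 weeks. With age 3.71% were called higher and 5.23% lower in WT, and 7.85% higher in KO. The single calls at 4 weeks and with age in WT are thus not read as a result about the list.

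Markers of other cells also differed between the genotypes. At 4 weeks 3 of 9 macrophage markers were higher in KO (Gpnmb, Cd5l and Ccr2), with list means of 7.27 to 7.63 in WT and 7.84 to 8.21 in KO. Gpnmb was not above background in 4w-WT. Of 8 endothelial markers 2 were lower (Stab2 and Erg), and of 6 bile duct markers 1 was higher (Tspan8, 2.51). Cd3e, a T cell marker, was also called higher, at levels not above background in WT and in KO. Their part in the 4-week calls was not tested. More markers were called at 8 weeks. Of 9 stellate cell and fibroblast markers 6 were higher in KO, and their mean ran from 7.52 to 8.36 in 8w-WT and from 9.23 to 10.61 in 8w-KO. Of 6 bile duct markers 5 were higher, with means of 5.10 to 6.08 in WT, where Krt19 and Epcam were not above background, and 7.13 to 9.70 in KO. Of 9 macrophage markers 6 were higher, with means of 6.97 to 7.22 in WT and 7.42 to 8.20 in KO. Among the 6, Trem2 was not above background in either 8-week group, and Gpnmb was not in 8w-WT. Of 8 endothelial markers 1 was higher, of 5 B and plasma cell markers 1 (Jchain), and of 8 hepatocyte and 7 neutrophil markers none. Of 9 T and NK cell markers 1 was lower, and Cd3d, Cd3e, Cd3g and Cd8a were not above background in any group, as were Cd79a, Cd79b, Ms4a1 and Mzb1 of B cells. Their part in the 4 members higher in KO at 8 weeks was not tested. Of all genes 4.70% were called higher and 5.48% lower at 4 weeks, and 4.94% higher and 1.65% lower at 8 weeks.

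With age in WT, 4 of 8 endothelial markers and 4 of 9 stellate markers were also lower. The endothelial mean ran from 8.87 to 9.36 in 4w-WT and from 7.61 to 8.40 in 8w-WT, and the stellate mean from 8.89 to 10.54 and from 7.52 to 8.36. The value of 10.54 is that of 4w-WT 4, an array with muscle transcripts in which Des, expressed in muscle too, was 12.15, and the next highest was 9.52. In KO 1 of 8 endothelial and none of 9 stellate markers was lower, and 2 stellate markers were higher. Bile duct markers were higher with age in KO in 6 of 6, with list means of 5.75 to 6.83 at 4 weeks and 7.13 to 9.70 at 8 weeks, and 0 of 6 were called in WT. Of 9 macrophage markers 3 were higher and 2 lower in KO, and 1 higher and 2 lower in WT. Gpnmb, the 1 higher in WT, was not above background at either age there. Trem2, among the 3 in KO, was likewise not above background at either age. No hepatocyte marker was called with age in either genotype. Their list means of 18.1 to 18.5 lay above 16, where fold differences may not be true to size. The lack of calls, here and between the genotypes, thus says little about hepatocyte content. Of 6 erythroid markers Rhag, Epb42 and Ermap were not above background in any group and Alas2 was higher with age in both genotypes. Of 9 T and NK cell markers, Cd4 was higher with age in WT, and Gzma and Gzmb were lower in KO. The neutrophil marker Retnlg was lower in WT, and the plasma cell marker Jchain was higher in KO. Gzmb was not above background at either age in KO, Gzma was not in 8w-KO, Jchain was not in 4w-KO and Retnlg was not in 8w-WT. The part of these cells in the fall of the members was not tested. Of all genes 3.71% were called higher and 5.23% lower with age in WT, and 7.85% and 6.78% in KO.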

How the data were processed

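Total RNA from 20 mouse livers, 5 per group by genotype and age, was measured on Clariom S Mouse arrays. Signals were made by the authors with RMA in Affymetrix Expression Console, as named in the submitters' processing notes without versions. The deposited values are log2 signals, and were used as deposited. Between 254 and 288 features per array lay above 16, where fold differences may be stretched or otherwise not true to size, and every member lay below 16. Of 22206 features 19572 had 1 gene symbol, and 1 feature per symbol, that with the highest mean, left 19505 genes.

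Group means were fitted to all 20 arrays with limma 3.58.1 in R 4.3.3 (16 residual degrees of freedom), and p-values were adjusted by Benjamini-Hochberg over 19505 genes. A gene was called at an adjusted p below 0.05. Labels do not describe sampling beyond 5 mice per group. The exact permutation test of 5 against 5 arrays is two-sided and cannot give less than 0.00794. The number of arrays limits the precision.

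The members and all lists were chosen with earlier results of these data known. Every member is named. Members called in any comparison and the 6 with the highest mean are given array by array, as ranges or as group means. Of each other list up to 4 called genes per comparison with the smallest adjusted p are named, with Rfc4 in WT and Mcm10 in KO besides. Promoters are those of matched members called in the most comparisons, ties being broken by the smallest adjusted p. The fit was tested on simulated data with 19505 genes. For KO against WT at 8 weeks it recovered 81% of changes of log2 size 1 and 100% of size 2, with 12 false calls of 193. For 8 against 4 weeks in WT it recovered 82% and 99%, with 8 false of 189. The simulated noise was independent between genes, and the changed genes were drawn at random from all genes. The median SD of the members ran from 0.33 in 8w-WT to 0.70 in 4w-WT, against 0.25 for all genes in both groups. These shares therefore do not give the recovery for the members.

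Alternatives were other scaling, a filter on dim genes, robust moderation, array weights, a replicate block, fits of only the groups compared, and fits without the arrays with muscle transcripts or without each array in turn.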

Additional observations from a re-analysis of the deposited data

Results flagged for a closer look

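A sample stood apart from the other 4 of its group in 4 of 144 combinations of a member and a group, where chance alone would give about 7.2 at 1 in 20. Ccnb2 was 5.63 in 8w-WT 2 and from 5.95 to 5.98 in the other 8w-WT arrays. E2f1 was 3.76 in 4w-KO 3 and from 4.01 to 4.05 in the others, all not above background. Bub1 was 7.21 in 4w-KO 1 and from 5.94 to 6.16 in the others. Birc5 was 5.44 in 8w-KO 1 and from 5.90 to 6.07 in the others.

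The KO difference of Stmn1 changed between the ages, by 2.08 (limma adjusted p = 0.0147) from 4 to 8 weeks. Without the 3 arrays with muscle transcripts the value was 1.81 and was not called (adjusted p = 0.0599), and the 1 of 36 members called compares with 3.05% of all genes.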

How the results depend on the processing

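The counts of 32 members lower with age ran from 30 to 32 in WT and in KO when each array was left out, and 30 of the 32 called members in each genotype kept their call in every alternative run. In no alternative did a called member change direction. The count of 4 members higher in KO at 8 weeks ran from 2 to 4 when each array was left out. With only the groups compared the 4 kept their calls, and Mcm4 (adjusted p = 0.0367) and Bub1b (0.0474) were called as well. At 4 weeks the count of 1 higher member ran from 0 to 1 when each array was left out, was 0 with only the groups compared and 2 without the arrays with muscle transcripts, and the count of 1 lower member was 0 without the arrays with muscle transcripts. For the change of the KO difference with age the count of 1 was 0 without those arrays and ran from 1 to 2 when each array was left out. The count of 0 members higher with age in KO ran from 0 to 1, the 1 being Tk1 without 8w-KO 5. With the background level at the 90th percentile, members not above it numbered 1 in 4w-WT, 1 in 4w-KO, 11 in 8w-WT and 7 in 8w-KO. With the level at the 99th they numbered 3, 5, 22 and 16 in the same order.

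Among all genes, setting array medians equal moved the share of higher calls from 75% to 48.3% at 8 weeks, from 46.2% to 33.2% at 4 weeks and from 41.5% to 52% with age in WT. Same-numbered arrays were not taken as pairs: at 4 weeks 4 of 5 pairs had a correlation over 0.1, with the lowest at -0.146, at 8 weeks 1 of 5, and across the ages none of 5 in WT or in KO. With the replicate block 32 members were lower with age in KO, 31 in WT and 3 were higher in KO at 8 weeks, and the Kif23 calls at 8 weeks (adjusted p = 0.0592) and with age in WT (adjusted p = 0.0644) were lost.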
